A study of Mus musculus with 8 samples.

Results

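Genes for the chaperones of the endoplasmic reticulum (ER) and for the unfolded protein response were followed in LPS-stimulated macrophages given ursodeoxycholic acid (UDCA). The set was a fixed list of 41 mouse genes out of 55487 listed in the deposited table and named for their function. The list was chosen with earlier results of these data known. It held 8 stress sensors or factors of their activation, 12 chaperones and co-chaperones, 4 disulfide isomerases, 11 genes of ER-associated degradation and 6 genes of the translocon and of N-glycosylation. RNA was sequenced from J774A.1 cells, a mouse macrophage line, after 24 h with LPS at 1 μg/mL (4 libraries) or with the same LPS together with UDCA at 1 mM (4 libraries). LPS is a component of the bacterial outer membrane that activates macrophages through Toll-like receptor 4, and UDCA is a secondary bile acid. Both groups are the same cell line and both received LPS, so by its labels the comparison is of LPS with UDCA against LPS alone. No library without LPS was analysed here. No label gives the origin of the replicates, and the p-values then measure the spread between these libraries, which may be technical. Values are in TPM, a unit of transcript abundance scaled by gene length and by library total.

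The ER folds membrane and secreted proteins with chaperones such as BiP (encoded by Hspa5) and GRP94 (Hsp90b1), and with lectins and disulfide isomerases that act on glycoproteins. When unfolded proteins accumulate, 3 sensors in the ER membrane respond. IRE1 (Ern1) splices the mRNA of Xbp1, PERK (Eif2ak3) slows translation and raises ATF4, and ATF6 is cut in the Golgi by the site-1 and site-2 proteases (Mbtps1 and Mbtps2) to free a transcription factor. Many chaperone genes carry the ER stress response element (ERSE) that ATF6 and XBP1 bind near the start site. In macrophages, Toll-like receptor signalling is known to engage the IRE1 and XBP1 branch, and the taurine conjugate of UDCA is widely used as a chemical chaperone. The deposited values are per gene, so the splicing of Xbp1, the cleavage of ATF6 and the phosphorylation of PERK were not measured.

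The ERSE was searched in RefSeq promoter windows on GRCm38.p6, which run from 250 bases before to 50 bases after the annotated start and were found for 33 of the 41 genes. Atf6, Hyou1, Manf, Sil1, Derl1, Erlec1, Sec61a1 and Ostc had no window. The search used the letters CCAAT and CCACG with 9 bases of any kind between them, on both strands. The element was present in the windows of 9 genes, or 27.3% of the 33, while 37 of 27025 genes with a window (0.137%) held it. Each match is shown because ATF6 and XBP1 are known to act through it and because the changes of these genes differed widely. The sequences are read 5′ to 3′ on the strand of the gene, in order of the change with UDCA, and the capitals mark the element, which reads CGTGG, 9 bases, ATTGG where it lies on the opposite strand.
Hspa5 (chr2:34772020-34772048, plus strand): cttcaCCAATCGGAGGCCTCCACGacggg
Hsp90b1 (chr10:86705528-86705556, minus strand): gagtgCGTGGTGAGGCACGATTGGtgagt
Hsp90b1 (chr10:86705633-86705661, minus strand): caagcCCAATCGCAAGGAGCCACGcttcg
Calr (chr8:84847070-84847098, minus strand): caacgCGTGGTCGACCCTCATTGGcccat
Canx (chr11:50325795-50325823, minus strand): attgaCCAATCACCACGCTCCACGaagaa
Dnajc3 (chr14:118937822-118937850, plus strand): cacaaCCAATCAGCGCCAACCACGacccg
Syvn1 (chr19:6046527-6046555, plus strand): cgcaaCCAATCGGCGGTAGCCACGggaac
Pdia6 (chr12:17266486-17266514, plus strand): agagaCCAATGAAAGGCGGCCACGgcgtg
Creld2 (chr15:88819515-88819543, plus strand): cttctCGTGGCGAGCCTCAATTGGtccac
Derl3 (chr10:75893237-75893265, plus strand): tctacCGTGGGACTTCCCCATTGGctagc
A second form, ERSE-II (ATTGG and CCACG with 1 base between), lay before the start of Herpud1 and is shown because that gene moved the other way.
Herpud1 (chr8:94386372-94386392, plus strand): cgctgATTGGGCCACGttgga
It was also found just after the start of Dnajb11, where it ends 17 bases after. No gene of the list with a window held both forms, and ERSE-II was held by 12 of 27025 genes (0.0444%). The 8 letters TGACGTGG, the core of the element bound by XBP1 and ATF6, were in 0 windows of these genes, and 193 of 27025 genes (0.714%) held them. The GENCODE start of Hspa5, at 34771970, lies before its RefSeq start, so the element of Hspa5 falls inside the gene as GENCODE draws it. A match in a window is a description of the sequence, not of binding.

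Among the 33 genes with a window, Hsp90b1 alone held 2 exact copies, in opposite orientation with 86 bases between them. They lie on the minus strand at chr10:86705528-86705661. Copies with a changed letter or outside the window were not searched for in any gene. The whole stretch is given with both copies in capitals.
Hsp90b1, both elements: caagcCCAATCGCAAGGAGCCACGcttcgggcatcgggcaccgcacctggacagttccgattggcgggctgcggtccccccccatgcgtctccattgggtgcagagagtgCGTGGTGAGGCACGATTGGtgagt

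**Figure D1:**
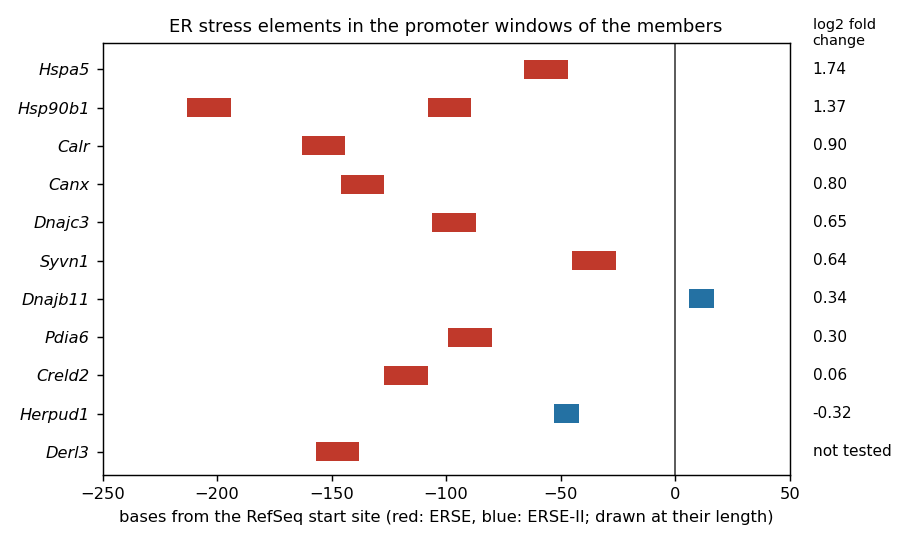
Position of each element relative to the RefSeq start site (x axis, in bases, negative before the start) for the 11 genes with a match, from the highest to the lowest log2 fold change, which is printed at the right. The ERSE of Hspa5 ends 47 bases before its RefSeq start, those of Hsp90b1 end 194 and 89 bases before, and that of Creld2, whose log2 fold change was 0.06, ends 108 bases before.

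Of the 41 genes, 40 had a mean of at least 1 TPM over the 8 libraries and were tested with limma, with Benjamini-Hochberg adjustment over all 11796 genes tested. At a false discovery rate (FDR) under 0.05, 25 of the 40 rose with UDCA (62.5%), 6 fell (15%) and 9 did not pass. Much of the transcriptome differed between the groups, and among all genes tested 40.2% rose and 32.3% fell. The median log2 fold change of the 40 genes was 0.48, against 0.08 for all genes. With the further requirement of a 2-fold change, 4 of the 40 were higher (Hspa5, Dnajb9, Wfs1 and Hsp90b1) and 0 were lower, where the background was 8.71% and 8.44% of all genes, so upward the share past 2-fold was close to that of all genes. All 4 LPS + UDCA libraries were above all 4 LPS libraries in 23 genes and below them in 6, and the groups overlapped in 11 of the 40. Over all genes tested, 37.0% were apart upward and 29.9% downward.

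The remaining gene, Derl3, was listed at 0 TPM in 7 libraries and at 0.18 TPM in LPS + UDCA replicate 3. It encodes a derlin known from secretory tissues and was not tested, although its promoter window holds an ERSE.

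**Figure D2:**
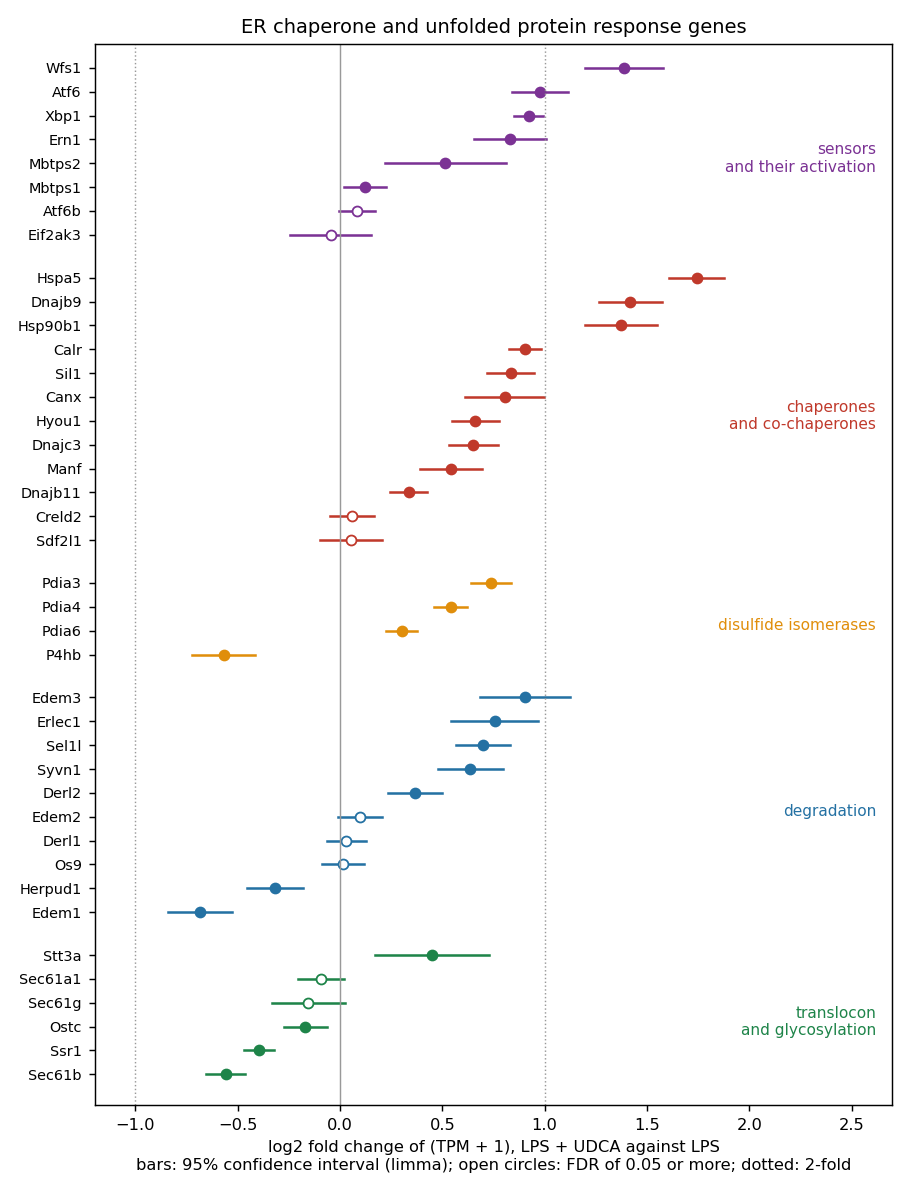
Log2 fold change of TPM + 1 for LPS + UDCA against LPS (x axis), with the 95% confidence interval from limma as a bar, for the 40 genes tested, grouped by class. Filled circles passed an FDR of 0.05. Hspa5 was highest at 1.74 and Edem1 lowest at -0.68, and 5 of the 6 translocon and glycosylation genes lay left of 0, of which 3 passed.

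Of the 9 genes with an ERSE, 8 reached the level at which genes were tested, and 7 of those 8 rose with UDCA, 0 fell and Creld2 did not pass the test. Their median log2 fold change was 0.73. Of the 24 genes with a window and no ERSE, 13 rose, 5 fell and 6 did not pass, with a median of 0.23. These 24 include Dnajb11, which rose, and Herpud1, which fell, whose windows hold ERSE-II. The 8 genes without a window had 5 higher, 1 lower and 2 not called, with a median of 0.60. These are counts over small sets and were not tested against each other. Among all genes tested, 40.2% rose and 32.3% fell. Hspa5, Hsp90b1, Calr, Canx, Dnajc3 and Creld2 are also of the chaperone class, whose median was 0.73, so element and class overlap here.

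The chaperone class moved most. Of its 12 genes 10 rose, 0 fell and 2 did not pass, with a median log2 fold change of 0.73, and the summed TPM of the class went from between 3095 and 3373 with LPS to between 6467 and 7116 with LPS + UDCA, a ratio of means of 2.11. Hspa5, on chromosome 2 from 34771970 to 34777547 of GRCm38, encodes BiP, the HSP70 of the ER lumen that also holds the 3 sensors inactive. It was at 890.5, 803, 785 and 848 TPM in LPS replicates 1 to 4 and, in the same order, at 2562, 2718, 2811 and 3069 TPM with UDCA added. Every library with UDCA was far above every library without it. The mean rose 3.36-fold, at 831 ± 47.5 TPM with LPS against 2790 ± 212.5 TPM with LPS + UDCA (SD, n = 4 each). The change was 1.74 ± 0.059 (SE) on the log2 scale, adjusted p = 2.2e-08 in limma. It ranked 182 of 11796 by log2 fold change. Its share of the summed TPM of the 41 genes went from between 10.5% and 11.5% to between 23.7% and 27.0%.

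Hsp90b1, on chromosome 10 from 86690209 to 86705509, encodes GRP94, the HSP90 of the ER, which folds Toll-like receptors and integrins. It was at 276, 235, 227 and 255.7 TPM with LPS, against 581, 623, 658 and 719 TPM with UDCA added (1.37 ± 0.077 (SE) on the log2 scale, adjusted p = 4.2e-07 in limma). The groups were far apart, although 12.3% of the 31-base words of its transcripts also occur in other genes and the gene overlaps 1810014B01Rik on the opposite strand. Dnajb9, which encodes ERdj4, a J-domain partner of BiP that represses IRE1, was lower in level, at 13.9, 12.3, 11.4 and 12.4 TPM with LPS, against 34.6, 33.7, 33.9 and 38.0 TPM with UDCA added (1.42 ± 0.068 (SE) on the log2 scale, adjusted p = 1.7e-07 in limma). Here too every library with UDCA was above every library without it, and its shared words came to 10.8%.

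The lectin chaperones rose together. Calr encodes calreticulin, the soluble form, and had a mean of 635 ± 17.4 TPM with LPS against 1188 ± 42.7 TPM with LPS + UDCA (SD, n = 4 each), a log2 fold change of 0.90. Canx encodes calnexin, the membrane-bound form, and had a log2 fold change of 0.80. Among the nucleotide exchange factors of BiP, Sil1 had a log2 fold change of 0.83 and Hyou1 one of 0.66. The J-domain co-chaperones Dnajc3 and Dnajb11 had 0.65 and 0.34, and Manf, which encodes a secreted ER stress protein, had 0.54. All 7 of these genes passed the test and none had overlapping groups.

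Both exceptions in the class were Sdf2l1, a partner of the ERdj3 co-chaperone, and Creld2, an ER protein that is widely used as a marker of ER stress. Sdf2l1 was at 210.5 to 230.2 TPM with LPS, against 212 to 258 TPM with UDCA added (0.05 on the log2 scale, 95% confidence interval -0.099 to 0.205, adjusted p = 0.50 in limma). Creld2 was at 139.7 to 144 TPM and 139.7 to 163 TPM (0.06 on the log2 scale, 95% confidence interval -0.047 to 0.166, adjusted p = 0.28 in limma). Both intervals exclude the size of change of any of the other 10 chaperones, the smallest of which was 0.34 for Dnajb11, while under median-of-ratios scaling both fold changes were slightly below 0, and with quantile normalization Creld2 passed the test at 0.155.

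**Figure D3:**
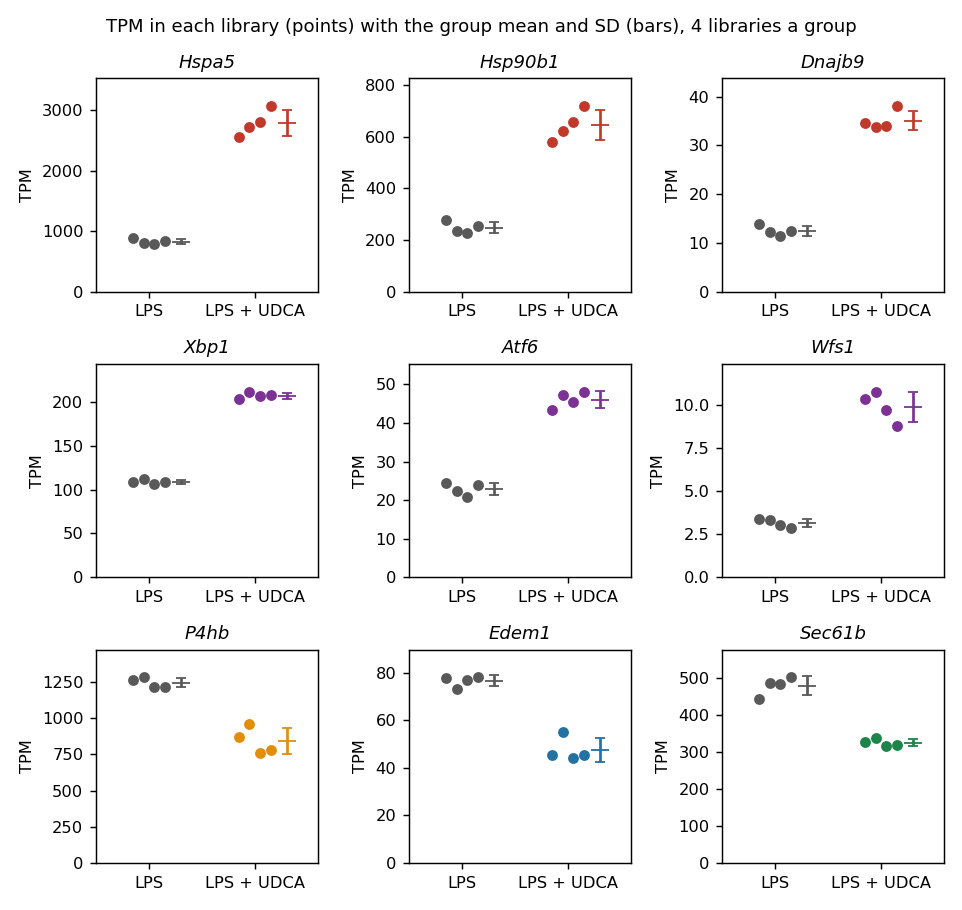
TPM (y axis, from 0) of 9 genes in each of the 8 libraries as points, with the group mean and SD beside them. In each of the 9 genes the LPS and the LPS + UDCA libraries do not overlap, with Hspa5, Hsp90b1, Dnajb9, Xbp1, Atf6 and Wfs1 higher and P4hb, Edem1 and Sec61b lower with UDCA.

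Among the 8 sensors and factors of their activation, 6 rose, 0 fell and 2 did not pass (median log2 fold change 0.67). Xbp1, the transcription factor of the IRE1 branch, was at 108, 112, 106 and 109 TPM with LPS, against 203, 211, 206 and 208 TPM with UDCA added (0.92 ± 0.031 (SE) on the log2 scale, adjusted p = 2.1e-08 in limma). The libraries of a group lay close together, and the SD of Xbp1 between replicates, 0.029 on the log2 scale, was the lowest of the 40 genes, whose median was 0.085 (0.122 for all genes tested). Ern1, which encodes IRE1 itself, was at 8.44, 6.55, 7.34 and 6.95 TPM and 13.8, 14.3, 13.3 and 13.7 TPM (0.83 ± 0.077 (SE) on the log2 scale, adjusted p = 1.0e-05 in limma). Both were thus close to, and under, the 2-fold threshold, and the TPM of Xbp1 does not tell the spliced from the unspliced mRNA.

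Atf6 was at 24.6, 22.3, 20.9 and 23.9 TPM with LPS, against 43.3, 47.3, 45.5 and 48.1 TPM with UDCA added (0.98 ± 0.061 (SE) on the log2 scale, adjusted p = 8.0e-07 in limma). Its homologue Atf6b, a weaker activator that can compete with ATF6, was at 117, 112, 111 and 107 TPM and 119, 121, 114 and 118 TPM (0.08 on the log2 scale, 95% confidence interval -0.004 to 0.171, adjusted p = 0.079 in limma). The mean of Atf6 rose 2.01-fold in TPM, just under the 2-fold threshold on the scale of log2(TPM + 1), with the groups apart, while Atf6b, the more abundant of the pair, had overlapping groups and passed the test in 3 of 16 other settings (0.105 to 0.168). Mbtps1, the site-1 protease, was at 29.3, 27.1, 27.4 and 28.1 TPM and 29.9, 30.0, 32.1 and 30.1 TPM, a small difference that just passed the test (0.12 ± 0.046 (SE) on the log2 scale, adjusted p = 0.039 in limma) and was lost in 11 of 16 other settings. Mbtps2, the site-2 protease, was at 13.6, 9.93, 11.3 and 11.9 TPM and 13.1, 17.6, 18.8 and 19.3 TPM (0.52 ± 0.13 (SE) on the log2 scale, adjusted p = 0.0057 in limma). Its groups overlapped, since LPS + UDCA replicate 1 lay below LPS replicate 1. It had the largest SD between replicates of the 40 genes (0.211), and 31.3% of its 31-base words occur in other genes, with Yy2 inside it on the same strand.

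Eif2ak3, which encodes PERK, was at 7.88, 6.9, 6.55 and 6.4 TPM with LPS, against 5.96, 7.29, 6.93 and 6.53 TPM with UDCA added. The groups overlapped, and the log2 fold change of -0.05 (95% confidence interval -0.24 to 0.15) did not pass the test (adjusted p = 0.64 in limma). Wfs1 encodes wolframin, an ER membrane protein that restrains ATF6 and is mutated in Wolfram syndrome. It was low with LPS, at 3.38, 3.31, 3.05 and 2.86 TPM, and reached 10.3, 10.8, 9.68 and 8.78 TPM with LPS + UDCA, a 3.14-fold higher mean (1.39 ± 0.084 (SE) on the log2 scale, adjusted p = 6.7e-07 in limma). Of the 8 genes it rose most.

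The 4 disulfide isomerases, which form and reshuffle disulfide bonds, did not move together. Pdia3, the ERp57 isomerase that works with calnexin and calreticulin, was at 261, 250.3, 243 and 260.5 TPM with LPS, against 398, 421, 424 and 453 TPM with UDCA added (0.74 ± 0.044 (SE) on the log2 scale, adjusted p = 6.2e-07 in limma). Pdia4 was at 147, 154, 144 and 147 TPM and 216, 222, 207 and 216 TPM (0.54 ± 0.035 (SE) on the log2 scale, adjusted p = 9.9e-07 in limma), and Pdia6 had a log2 fold change of 0.30. P4hb, which encodes protein disulfide isomerase itself and was the most abundant of the 41 genes with LPS, went the other way, from 1263, 1282, 1219 and 1219 TPM to 867, 960.5, 760.4 and 783 TPM (-0.57 ± 0.068 (SE) on the log2 scale, adjusted p = 5.3e-05 in limma). All LPS + UDCA libraries were below all LPS libraries, and the mean was 1.48-fold lower. The summed TPM of the 4 genes, 1958 to 2042 with LPS and 1821 to 2059 with LPS + UDCA, overlapped between the groups.

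Of the 11 genes of ER-associated degradation, which extracts misfolded proteins to the cytosol for the proteasome, 5 of 10 tested rose, 2 fell and 3 did not pass (median log2 fold change 0.23). These shares, 50% and 20%, stand beside 40.2% and 32.3% of all genes tested. Edem3, a mannosidase that trims glycans to mark clients, was at 4.51, 3.63, 3.28 and 3.72 TPM with LPS, against 7.06, 8.05, 8.05 and 8.59 TPM with UDCA added (0.91 ± 0.097 (SE) on the log2 scale, adjusted p = 2.7e-05 in limma). Erlec1, a lectin that reads those glycans, was at 9.14, 8.03, 8.97 and 10.4 TPM and 16.1, 16.2, 14.0 and 18.1 TPM (0.76 ± 0.093 (SE) on the log2 scale, adjusted p = 6.7e-05 in limma). Sel1l, the adaptor of the HRD1 ubiquitin ligase, was at 59.9, 52.3, 52.9 and 54.9 TPM and 88.2, 94.4, 83.1 and 93.6 TPM (0.70 ± 0.058 (SE) on the log2 scale, adjusted p = 4.8e-06 in limma). In all 3 the groups were apart. Syvn1, which encodes HRD1, and Derl2, a derlin of the same channel, rose by 0.64 and 0.36 on the log2 scale.

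Edem1, a relative of Edem3, fell. It was at 73.2 to 78.1 TPM with LPS, against 44.2 to 55.1 TPM with UDCA added (-0.68 ± 0.069 (SE) on the log2 scale, adjusted p = 1.8e-05 in limma). Herpud1, a partner of HRD1 and a widely used target gene of the response, fell by 0.32 on the log2 scale, with LPS libraries at 219.6 to 236 TPM and LPS + UDCA libraries at 166 to 203 TPM (adjusted p = 0.0011 in limma), with Gm15890 overlapping it on the opposite strand (reads of such pairs cannot be told apart if counted without strand). The lectin Os9, the derlin Derl1 and Edem2 had log2 fold changes of 0.01, 0.03 and 0.10 and did not pass the test. All 3 had confidence intervals of the log2 fold change that stayed within -0.09 and 0.21. The summed TPM of the class differed little, at 677 to 699.8 with LPS and 670.0 to 755 with LPS + UDCA.

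Of the 6 genes through which proteins enter the ER and receive N-glycans, 1 rose, 3 fell and 2 did not pass (median log2 fold change -0.16). Sec61b, the β subunit of the translocon, was at 444, 487, 484 and 502 TPM with LPS, against 327, 337, 317 and 318 TPM with UDCA added (-0.56 ± 0.042 (SE) on the log2 scale, adjusted p = 2.6e-06 in limma). Ssr1, a subunit of the translocon-associated TRAP complex, was at 132, 131, 128 and 132 TPM and 98.8, 101, 95.8 and 100.2 TPM (-0.40 ± 0.032 (SE) on the log2 scale, adjusted p = 4.5e-06 in limma). In both, all LPS + UDCA libraries were lower, and 23.5% of the 31-base words of Sec61b occur in other genes.

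Ostc, of the oligosaccharyltransferase, fell by 0.17 on the log2 scale (adjusted p = 0.0081 in limma). The translocon channel gene Sec61a1 (-0.09, 95% confidence interval -0.206 to 0.018) and the γ subunit gene Sec61g (-0.15, 95% confidence interval -0.334 to 0.024) did not pass. Stt3a, a catalytic subunit of the oligosaccharyltransferase, was at 318, 358, 279 and 244 TPM and 458, 377, 356 and 442 TPM (0.45 ± 0.123 (SE) on the log2 scale, adjusted p = 0.0085 in limma). It passed the test with overlapping groups and a wide spread (SD 0.209 on the log2 scale), as LPS replicate 2 lay above LPS + UDCA replicate 3.

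Over all 41 genes the summed TPM was 7345 to 7715 with LPS and 10719 to 11374 with LPS + UDCA, a ratio of means of 1.47. The sensors alone had a ratio of 1.496, and the isomerases, degradation and translocon classes had 0.96, 1.02 and 0.91, so the higher sum lay in the chaperones and, at lower levels, in the sensors.

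**Figure D4:**
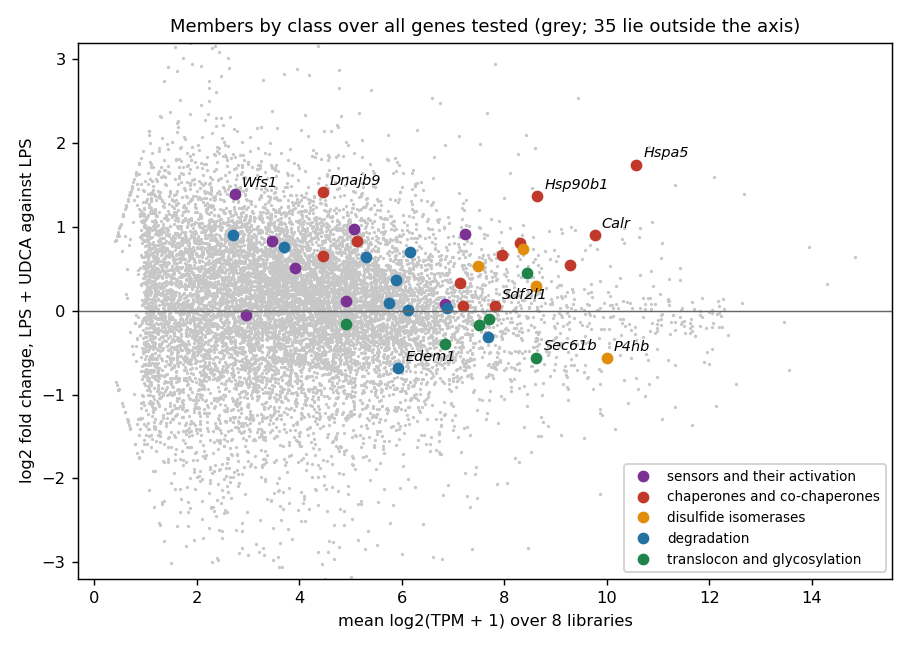
Mean log2 of TPM + 1 over the 8 libraries (x axis) against the log2 fold change for LPS + UDCA against LPS (y axis), with the 11796 genes tested in grey and the 40 genes coloured by class. Genes beyond the range of the y axis are not shown, and all genes tested ran from -5.89 to 5.37. Hspa5, at 1.74, lies at high level, and P4hb and Sec61b lie below 0.

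Whether related genes differed in their response was tested within libraries, as the difference of log2(TPM + 1) between the genes of a pair, by exact permutation of the 8 libraries (70 arrangements, 2-sided, smallest possible p 0.029) and Benjamini-Hochberg adjustment over 15 pairs. Of 16 pairs listed, that of Derl3 and Derl2 was not tested. In 12 of the 15 pairs the difference shifted with UDCA, with the groups apart (exact p = 0.029, adjusted p = 0.036 in each). Groups that are apart always reach this smallest p, and the permutation takes the libraries as unpaired. Among single genes tested, 37.0% were apart upward and 29.9% downward. The share among other pairs of genes was not computed, so whether the count is particular to related genes is not known. The pairs were chosen with earlier results of these data known.

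The widest shift among ER genes was that between Edem1 and Edem3. Edem1 exceeded Edem3 by 3.84 to 4.19 on the log2 scale in the LPS libraries and by 2.28 to 2.63 in the LPS + UDCA libraries, a shift of -1.59. Against Edem2, Edem1 went from above in all 4 LPS libraries to below in all 4 LPS + UDCA libraries (mean difference 0.57 and -0.21). Os9 shifted by -0.74 relative to Erlec1, and Derl1 by -0.33 relative to Derl2, each with groups apart. Pdia6 gained 0.87 relative to P4hb, while Pdia4 shifted by -0.20 relative to Pdia3. Sec61b shifted by -0.40 relative to Sec61g.

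Among the sensors, Atf6 gained 0.89 relative to Atf6b, and Ern1 gained 0.88 relative to Eif2ak3, since Ern1 was within 0.14 of Eif2ak3 in every LPS library and 0.85 to 1.09 above it in every LPS + UDCA library. The site proteases did not pass (Mbtps1 minus Mbtps2, shift -0.39, exact permutation p = 0.057, adjusted 0.066), nor did Calr against Canx (shift 0.10, exact permutation p = 0.37).

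The ER chaperones were also set against their relatives in other compartments. Hspa5 gained 1.53 relative to Hspa9, the mitochondrial HSP70, and Hsp90b1 gained 1.73 relative to Trap1, the mitochondrial HSP90, and 0.56 relative to Hsp90ab1 of the cytosol. Hsp90aa1, also of the cytosol, was not among the pairs and rose more than Hsp90b1 (log2 fold changes 1.65 and 1.37). Relative to Hspa8, the constitutive HSP70 of the cytosol, Hspa5 did not pass (shift -0.16, exact permutation p = 0.11, adjusted 0.12), and Hspa8 itself was at 1392 to 1483 TPM with LPS, against 4669 to 6028 TPM with UDCA added. Among 27 tested genes of cytosolic and mitochondrial heat shock proteins, 24 rose, 2 fell and 1 did not pass, with a median log2 fold change of 0.81, and 11 rose at least 2-fold. Over all genes tested, 40.2% rose, 32.3% fell and 8.71% rose at least 2-fold. Higher chaperone mRNA was thus measured outside the ER list too.

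**Figure D5:**
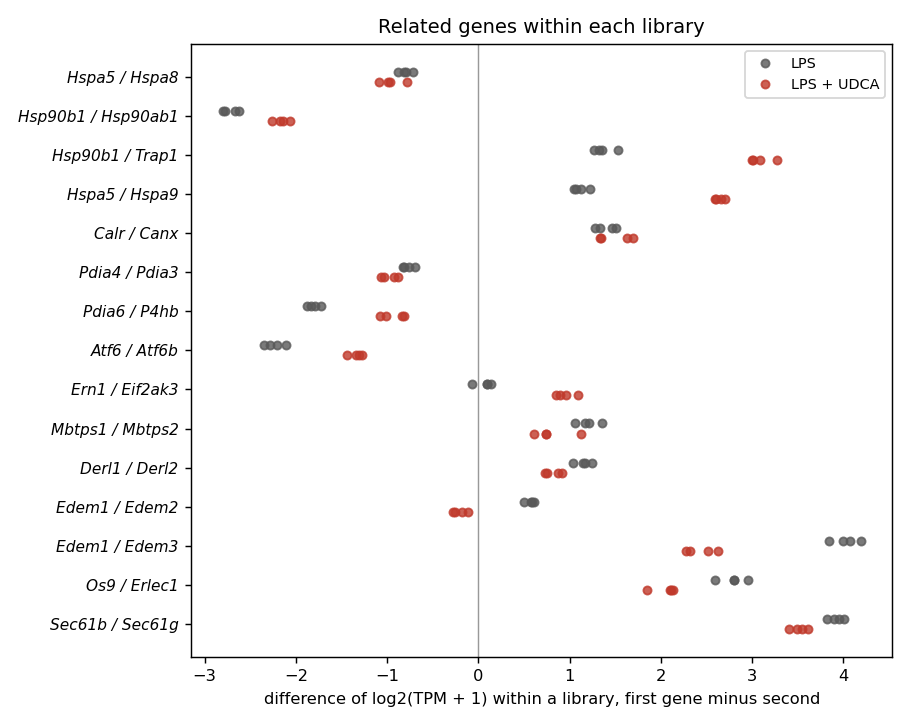
Difference of log2(TPM + 1) between the first and the second gene of each of 15 pairs (x axis) in the 4 LPS libraries (grey) and the 4 LPS + UDCA libraries (red). The groups are apart in 12 pairs and overlap in Hspa5 and Hspa8, Calr and Canx, and Mbtps1 and Mbtps2.

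Other genes of the same pathways, 113 in 4 lists by function of which 109 were tested, had 60 higher, 26 lower and 23 not called, with a median log2 fold change of 0.20. These were 55% higher and 23.9% lower, against 40.2% and 32.3% of all genes tested. In the list of other ER folding genes, 15 of 35 rose and 10 fell (median 0.08), shares near those of all genes. Its highest were Ero1l, the oxidase that recharges disulfide isomerases (0.93), and Creld1 (0.93), and its lowest were Qsox1, another thiol oxidase (-1.24), and Fkbp11, a prolyl isomerase (-1.22). In the list of other ER degradation genes, 16 of 24 rose (66.7%) and 5 fell (20.8%), with a median of 0.43. Ubxn4, an ER partner of the p97 ATPase, was at 21.8 to 31.02 TPM with LPS and 87.4 to 121 TPM with UDCA (log2 fold change 1.81), more than any of the 40 genes, and Erlin1, a membrane protein that binds degradation clients, had 1.65. Ubac2 (-1.24) and Get4 (-0.68) were lowest.

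Of 33 other genes of the translocon and of glycosylation, 17 rose and 9 fell (median 0.12), from Alg5 (1.01) and Srp54a (0.99) to Tusc3 (-0.66) and Sec11c (-0.54). These shares, 51.5% and 27.3%, were not far from the 40.2% and 32.3% of all genes tested. A list around ATF4 and CHOP held their targets and partners, the translation factors Eif2a and Eif2s1 and the kinases Eif2ak1, Eif2ak2 and Eif2ak4, which act in parallel to PERK. Of its 17 tested genes 12 rose (70.6%), 2 fell (11.8%) and 3 did not pass (median 0.39), and those 3 were the kinases. Atf4 itself was at 472 to 477 TPM with LPS, against 897 to 953 TPM with UDCA added (log2 fold change 0.96), and Ddit3, which encodes CHOP, had 0.54. The highest were Atf5 (1.46) and Sesn2 (1.44), both known targets of ATF4. The lowest were Cebpb (-1.24), whose LPS libraries were widely spread at 161, 148, 83.8 and 60.1 TPM, and Nupr1 (-0.51). ATF4 is also controlled by kinases other than PERK.

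The identity of the cells was checked by markers. Of 10 macrophage markers, 9 were at 1 TPM or more in every library and Mertk was listed at 0 in all, and of 14 markers of other cell types 12 were under 1 TPM on average, the exceptions being the myeloid genes S100a8 and S100a9. The summed macrophage markers went from between 4240 and 4472 TPM with LPS to between 2081 and 2338 TPM with LPS + UDCA, with Lyz2, Itgam, Cd68 and Csf1r lower and Adgre1 and Fcgr1 higher, and the other markers from between 19.9 and 26.4 TPM to between 2.81 and 9.40 TPM. Their part in the values of the ER genes was not tested. Columns summed to 973190 to 977485 TPM with LPS and to 958918 to 962737 TPM with LPS + UDCA, and fewer cells, less RNA per cell and a changed make-up of the RNA cannot be told apart in TPM. Manf, Syvn1, Derl2, Pdia3, Pdia6, Erlec1, Eif2ak3, Mbtps2, Dnajb9, Dnajb11, Sil1 and Sec61a1 also overlap another gene on the opposite strand. On the same strand, Manf overlaps Rbm15b, Hsp90b1 overlaps Gm15344 and Gm25745, and Atf6 overlaps Gm23523 and Gm25235. Eif2ak3 (Gm23346), Pdia4 (Mir704), Syvn1 (Mir6988) and Ostc (Gm42998) also have a same-strand overlap. In other genes occur 15.7% of the 31-base words of Sec61g and 8.6% of those of Derl1. The values of all these genes are less certain.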

How the data were processed

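RNA was extracted with TRIzol from J774A.1 cells after 24 h, and libraries were made with an Illumina TruSeq kit and sequenced by a service on a HiSeq instrument. The authors deposited one table of TPM per gene, 1 column per library, rounded to 2 decimals. The submitters' processing notes list Bowtie 0.12.2 and the builds mm10 and GRCm38, without saying what each was used for. The counting program and whether counting used strand are not given in the sources used here. TPM keeps no depth, so library depth is unknown and errors are spreads between replicates.

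Groups came from the sample labels. The 11796 genes whose mean over all libraries reached 1 TPM were fitted as log2(TPM + 1) with limma 3.58.1 in R 4.3.3 (lmFit, eBayes with a mean-variance trend), with Benjamini-Hochberg adjustment over all of them and calls at an FDR under 0.05, alone or with a 2-fold change, the thresholds of the study's methods. Fold changes on this scale understate the change of low genes. The procedure was tested on simulated data for this comparison, where 99% of 200 changed genes of 11638 were called, with 14 false calls. Recovery of differences under 2-fold, or of genes at low level, cannot be read from that share and is not given. Data with as many genes changed as were called here (40.2% higher and 32.3% lower) was not tested. The 41 genes, the other lists, the pairs and the rule for named genes were chosen with earlier results of these data known. The rule gives every library's value for each sensor or protease and for the 3 genes of each other class with the largest absolute log2 fold change, and names the 2 highest and 2 lowest called genes of each pathway list. Atf4, Ddit3, Edem1, Herpud1, Sdf2l1, Creld2 and the relatives in the pairs are given beside it.

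Positions, overlaps and shared 31-base words are from GENCODE M21 on GRCm38, and promoter windows from RefSeq on GRCm38.p6. No library pair held identical values. Alternatives covered the scaling, the filter, the pseudocount, the variance model, the thresholds, the replicate block and leaving out each library. Tables and figures were made in Python 3.11.15 with pandas 2.3.3 and matplotlib 3.10.9.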

Additional observations from a re-analysis of the deposited data

Results flagged for a closer look

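In each gene and group the library farthest from the others was compared with Dixon's 95% critical value for 4 samples. Of 80 groups of values over the 40 genes, 5 were past it, where chance gives about 1 in 20, or 4.0. Mbtps1 in LPS + UDCA replicate 3, at 32.07 TPM, was above the other 3 libraries at 29.9 to 30.1 TPM. Edem1 in LPS + UDCA replicate 2 was highest at 55.08 TPM, still below every LPS library. Calr in LPS replicate 1 was highest of its group at 660.54 TPM, and Edem2 and Ssr1 in LPS replicate 3 were lowest of theirs at 50.09 and 127.51 TPM. In Mbtps1, Calr, Edem1 and Ssr1 the groups stayed apart, while those of Edem2 overlapped.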

How the results depend on the processing

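Over 16 alternatives the log2 fold changes of the 40 genes gave 640 values, of which 607 kept their direction and their side of the threshold, 12 lost and 11 gained the call and 10 changed sign, and 29 of the 40 genes kept both throughout. The count of genes higher was 24 to 27 and that of genes lower 5 to 8, and without 1 library each 24 to 26 and 6 to 8. With a 1.5-fold minimum in place of 2-fold, 17 genes were higher and 1 lower, and at 2-fold 4 to 6 were higher, with Atf6 and Edem3 past it at a pseudocount of 0.1, Calr with quantile normalization, and Atf6 without LPS replicate 1 or LPS + UDCA replicate 1. Median-of-ratios scaling moved the median of all genes from 0.082 to -0.018, the median of the 40 genes from 0.48 to 0.378, that of the degradation class from 0.231 to 0.124 and that of the translocon class from -0.162 to -0.269. The sign changes were in genes that did not pass the test. Under that scaling they were Atf6b (-0.025), Sdf2l1 (-0.055), Creld2 (-0.049), Derl1 (-0.077), Edem2 (-0.010) and Os9 (-0.094). Without 1 library each, Eif2ak3 ran from -0.084 to 0.009 (without LPS replicate 1), Sdf2l1 from -0.004 (without LPS + UDCA replicate 2) to 0.091, and Os9 from -0.012 to 0.047, below 0 without LPS + UDCA replicate 1 (-0.004) or 2. The call of Mbtps1 was lost in 11 settings, among them leaving out any library but LPS replicate 1 (0.097 to 0.13). Calls were gained by Atf6b (0.105 rescaled to equal sums, 0.168 with quantile normalization, 0.107 without LPS replicate 1), Creld2 (0.155) and Derl1 (0.114) with quantile normalization, Edem2 (0.118 rescaled, 0.125 without LPS + UDCA replicate 4), and, as lower, Sec61a1 and Sec61g with median-of-ratios scaling (-0.203 and -0.260) or without LPS + UDCA replicate 2 (-0.135 and -0.207). Ostc was no longer called with quantile normalization (-0.110). The pairs past the threshold numbered 11 to 13.

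The groups share replicate numbers. Deviations from the group means correlated by -0.035 to 0.146 in the 4 same-numbered pairs of libraries, 3 of them over 0.1, and by -0.145 to 0.162 in the 12 others, 1 of them over 0.1. Since not every same-numbered pair was over 0.1, the numbers were not taken to pair the samples, although these values do not exclude pairing. With the replicate block 24 genes were higher and 6 lower, 4 of them higher by at least 2-fold, and Mbtps1 was no longer called. For the ratios of gene pairs, pairing allows no p under 0.125, so no such result is given. The calls of the gene pairs therefore rest on taking the libraries as unpaired. TPM carries no read numbers, and what depth limits could not be computed.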
